A study of Mus musculus with 12 samples.

Results

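Cytosolic ribosomal protein genes encode the protein subunits of the cytoplasmic ribosome. They were taken here as the symbols that begin with Rps or Rpl followed by a number and at most 1 letter, plus the stalk genes Rplp0, Rplp1 and Rplp2, with a mean normalized count of at least 10 in the comparison concerned. The deposited tables held 24417 symbols, of which 80 had such a name, and 72 or 73 of them reached the minimum, among 8212 to 9108 genes tested in each comparison. The members comprised 29 or 30 genes of the small subunit, 40 of the large subunit and the 3 stalk genes, on 19 chromosomes.

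Regulatory T cells (Tregs) were sorted from NOD retrogenic mice aged 6.8 weeks, the strain that develops autoimmune diabetes without treatment. Retrogenic mice are made with bone marrow into which a retrovirus has placed a chosen T cell receptor (TCR). The design text calls the animals two-TCR retrogenic mice and names a pair of insulin-specific TCRs, 4-8 as the high affinity and 12-4.4m1 as the low affinity receptor. The 4 groups were 4-8 Tregs from pancreatic islets, 12-4.4m1 Tregs from pancreatic islets, 4-8 Tregs from spleen and 12-4.4m1 Tregs from spleen, with 3 RNA-seq libraries each and 12 in all. All groups share the strain, the age and the retrogenic model, and no group of untreated or conventional Tregs was part of it. Each affinity is represented by 1 receptor, so effects of affinity and of other receptor properties cannot be told apart. Nothing in the labels says whether each library came from a different mouse or from pooled mice, so p-values measure only the spread between these libraries, which may be technical.

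Ribosomal proteins are made in amounts matched to each other, and most are assembled onto ribosomal RNA in the nucleolus. Their mRNAs typically begin with a C followed by a short run of pyrimidines, the 5′ terminal oligopyrimidine tract (TOP), through which mTOR signalling can raise or lower their translation with little change in mRNA. T cells build many ribosomes when they leave the resting state, and a measurement of mRNA, as here, does not read the translation of these messages.

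The start of the transcript is the sequence feature for which this family is best known, so the 15 bases before and 15 after the annotated start are printed for the genes that passed a tissue test and have an entry, and for Rps10, whose tissue difference was the lowest of the family in 12-4.4m1, and Rps6. The sequences are RefSeq's on build GRCm38.p6, on the strand of the transcript. Capitals mark a run of at least 5 bases, each C or T, that opens with a C within 5 bases of the start, searched on the transcript's strand only.
Rps15a, chr7:118116133-118116162, minus strand: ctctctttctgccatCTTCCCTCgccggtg
Rps2, chr17:24720048-24720077, plus strand: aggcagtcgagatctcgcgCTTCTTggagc
Rps25, chr9:44407699-44407728, plus strand: tttttccgacatcttagcgaggctgctgtg
Rpl37a, chr1:72711245-72711274, plus strand: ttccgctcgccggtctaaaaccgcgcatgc
Rps10, chr17:27635230-27635259, minus strand: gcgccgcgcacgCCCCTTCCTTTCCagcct
Rps6, chr4:86857353-86857382, minus strand: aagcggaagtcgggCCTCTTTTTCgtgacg
Of the 73 members 54 had a RefSeq start in the table used. Such a run was found at 28 of their 64 starts (43.8%), and at 18.3% of the 32851 starts of all genes. Among genes with 1 annotated start the shares were 47.8% of 46 members and 18.3% of 22862 genes. An annotated start can lie some bases from the start used in these cells, so a window without capitals says only that these letters are not in it. Rpl8 had no entry.

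Levels of these genes were high in all 4 groups. In the authors' FPKM values, which are scaled by transcript length and given as 1 value per group, the members' share of the summed FPKM of all genes was 35.1% in islet 4-8 and 36.7% in islet 12-4.4m1 (islet table), and 34.4% and 34.5% in the spleen table. The islet shares are over 72 members without Rps27, and the spleen shares over 73 with it. Over 72 members without Rps27, the 12-4.4m1 tissue comparison gave 36.7% in islets and 33.4% in spleen. Over all 80 symbols the shares in the islet and spleen tables were 35.6%, 36.9%, 34.4% and 34.5% in the same order. In the authors' mean normalized counts, which are not scaled by length, the share was 10.5% to 11.0%. The lowest FPKM of any member in each group was that of Rpl22, a large subunit protein that most translation does not require but that T cell development does, at 433 in islet 4-8, 508 in islet 12-4.4m1, 488 in spleen 4-8 and 494 in spleen 12-4.4m1. The highest values were those of Rpl38, Rps29 and, depending on the group, Rpl41, Rpl37a or Rps14. Rpl38 stood at 14637 FPKM in islet 4-8 and 15581 in islet 12-4.4m1, and at 17197 and 16031 in spleen. The highest member was 31.9 to 35.2 times the lowest within a group.

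The deposited counts and FPKM values placed a few genes differently. Many ribosomal protein genes have processed pseudogenes of nearly the same sequence, and the part of such copies in these levels was not tested. Rps27, a small subunit protein, had a mean normalized count of only 8.75 in the islet table, below the minimum, and 11.5 in the spleen table, just above it, while its FPKM was 4863 in islet 4-8 and 4655 in spleen 4-8. In the GENCODE transcripts 98.7% of the stretches of 50 bases in Rps27 also occur in other genes. The next lowest member inside the minimum, Rpl29, had a mean of 61.0 in the islet table and 84.9 in the spleen table, against a median over the members of 1264 and 1815. Rpl34 was outside with 5.47 in the spleen table, and Rpl26, Rpl30, Rpl10l, Rpl39l, Rpl3l and Rps4l were also outside in every table. For Rpl26, listed at 0, 71.3% of the stretches of 50 bases are shared with other genes, and for Rpl30 the share is 76.4%. Other members shared as much and had ordinary counts in the islet table, such as Rpl35 with 95.1% and a mean of 588, Rpl10 with 92.1% and 1252, and Rps18 with 86.7% and 1056. For Rpl35 the gene that shared most of these stretches was Wdr38, which is not named as a copy of it. Why the counts of these genes differ was not tested. Counts of genes with copies of nearly the same sequence are uncertain, since reads can be split between the copies or discarded. For Rps27 the deposited measures also differed in the comparison of the TCRs. Its FPKM in spleen was 4655 for 4-8 and 10972 for 12-4.4m1. Its rlog values were 3.54, 3.54 and 3.56 in 4-8 against 3.44, 3.53 and 3.55 in 12-4.4m1, and the fit gave a difference of 0.04 ± 0.08. Rps15a stood apart in the other direction, with a mean normalized count of 3756 in the islet table and 4226 in the spleen table. Its FPKM was only 795 in islet 4-8 and 647 in spleen 4-8, among the 3 lowest members of that spleen group.

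Between the TCRs in islets, no ribosomal protein gene passed the test of a difference. All values that follow for single libraries are the authors' rlog values (log2 scale, regularized so that differences are shrunk, most at low counts). Differences are 4-8 minus 12-4.4m1, with the SE of limma's fit over all genes of the table. None of the 72 members passed an adjusted p of 0.05 (0 higher, 0 lower), where 0.365% of all genes did, and 0 of 72 reached an unadjusted p of 0.05, where 6.78% of all genes did. The authors' deposited DESeq2 and Cuffdiff tables called 0 members as well, and 0.353% and 0.945% of all genes. The median difference over the members was −0.06, against 0.00 over all genes tested, with 22 members above 0 and 50 below (49.3% of all genes were above 0), and it lay between −0.19 and 0.02 when each library was left out in turn. No member had groups that did not overlap, where 11.9% of all genes did, 5.92% with 4-8 higher and 5.99% with 4-8 lower.

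The member with the largest positive difference in islets was Rps2, a small subunit protein near the mRNA entry channel. Its values were 10.38, 9.59 and 10.54 in 4-8 and 9.43, 9.76 and 10.35 in 12-4.4m1, so the groups overlapped and each spanned about 0.9, and the difference was 0.32 ± 0.23 (adjusted p = 0.844, limma). The most negative was Rps29, a small zinc-binding protein of the small subunit. Its values were 9.58, 9.98 and 10.37 in 4-8 and 10.01, 10.52 and 10.32 in 12-4.4m1, a difference of −0.30 ± 0.20 (adjusted p = 0.828, limma). Both genes ranged more widely among libraries of 1 group than between the group means.

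Genes named for their roles in the ribosome did not pass in islets either. Rplp0, the protein that anchors the stalk to the large subunit, stood at 11.30, 10.92 and 11.40 in 4-8 and at 10.69, 11.16 and 11.18 in 12-4.4m1, a difference of 0.20 ± 0.18. The proteins that dimerize on it and recruit the translation factors, Rplp1 and Rplp2, differed by −0.02 ± 0.18 and −0.20 ± 0.18. Rps6, the small subunit protein phosphorylated downstream of mTOR, differed by 0.08 ± 0.20, with 8.71, 8.17 and 8.77 in 4-8 and 8.23, 8.65 and 8.53 in 12-4.4m1. In each of these the 4-8 library of replicate 2 was the lowest of its group, and the groups overlapped. Rpl22 differed by −0.20 ± 0.18, Rps27l, a p53-inducible relative of Rps27, by 0.09 ± 0.22, and Rpl3, which reaches towards the peptidyl transferase centre, by 0.06 ± 0.19. Rpl10, a late-joining large subunit protein, differed by 0.03 ± 0.20, the X-linked Rps4x by 0.02 ± 0.16, and Rpl39, which lines the exit tunnel, by −0.05 ± 0.18. Rps3 (0.12 ± 0.17), Rps28 (−0.26 ± 0.19) and Rpl37a (−0.25 ± 0.19) were the others nearest to the threshold in either direction.

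In spleen no member passed between the TCRs either, and here the libraries were closer to each other. Again 0 of 73 members passed (0 higher, 0 lower), where 0.428% of all genes did, and 0 of 73 reached an unadjusted p of 0.05, where 7.93% did. The authors' deposited DESeq2 and Cuffdiff tables called 0 members, and 0.231% and 1.15% of all genes. The median difference was 0.06, with 55 members above 0 and 18 below (49.7% of all genes were above 0), and it stayed between 0.01 and 0.10 when each library was left out in turn. For 6 members, with Rpl17, Rpl19, Rps13, Rps15a and Rps16 among them, the groups did not overlap and 4-8 was higher. That is 8.22% of the members, against 13.3% of all genes in either direction, 6.79% with 4-8 higher and 6.48% with 4-8 lower.

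In spleen Rps15a, a small subunit protein, measured 12.20, 12.10 and 12.09 in 4-8 and 11.92, 11.87 and 12.06 in 12-4.4m1. Its groups did not overlap, by a margin of a few hundredths, and its difference of 0.18 ± 0.09 had an adjusted p of 0.683 (limma). Rpl7, a large subunit protein, was the most negative at −0.14 ± 0.11, with 10.49, 10.83 and 10.80 in 4-8 and 10.81, 10.77 and 10.97 in 12-4.4m1. Rps13 (0.17 ± 0.10) and Rps4x (−0.11 ± 0.10) were also among those nearest to the threshold. Of the genes named for their roles, Rplp0 differed by 0.01 ± 0.11, Rplp1 and Rplp2 by 0.12 ± 0.10 and 0.12 ± 0.11, Rps6 by −0.01 ± 0.12, Rpl22 by −0.03 ± 0.11, Rps27l by 0.09 ± 0.12, Rpl3 by 0.01 ± 0.11, Rpl10 by −0.04 ± 0.10 and Rpl39 by 0.06 ± 0.11.

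**Figure D1:**
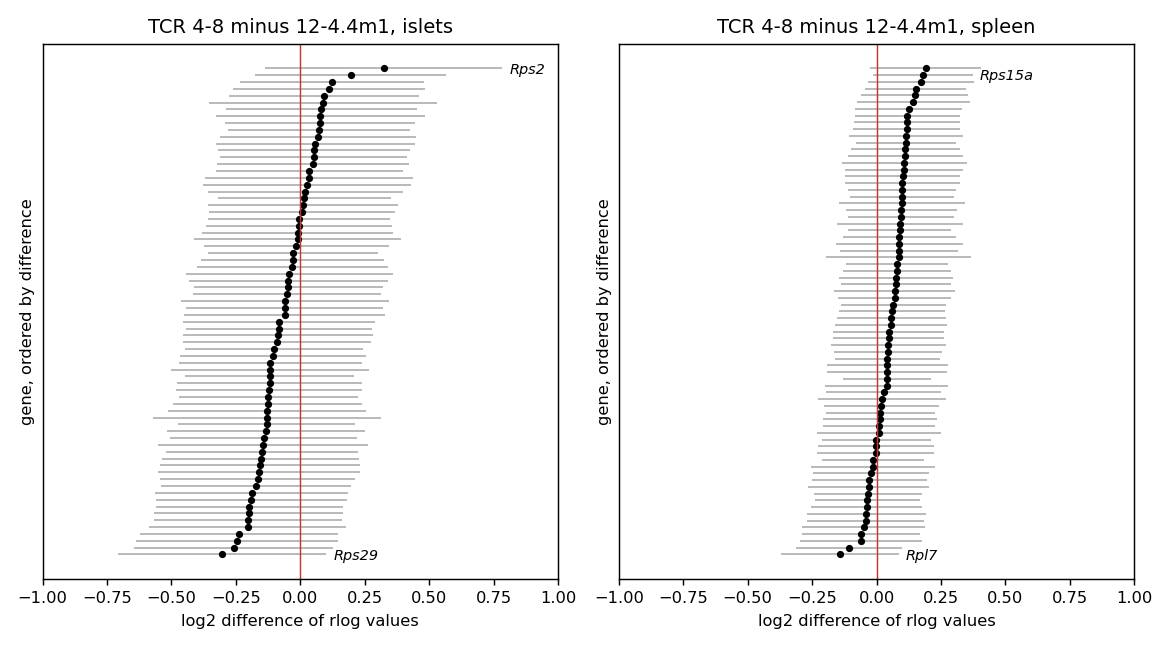
Difference between the TCRs for each ribosomal protein gene (points, log2 of rlog values, 4-8 minus 12-4.4m1) with its 95% interval from limma (grey lines), in islets (left, 72 genes) and spleen (right, 73 genes). Every interval crosses 0, and the intervals are narrower in spleen, where all 73 lie within 0.5 of 0, than in islets, where 47 of 72 do.

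How large a difference could have been missed differed between the organs. The 95% intervals in spleen reached from −0.37 to 0.41 at most, so for each of the 73 members an rlog difference over 0.5 lay outside its interval. Differences of rlog values are shrunk, so this sets no bound on the unshrunken difference. For Rpl37a between the organs in 12-4.4m1 the rlog difference was 0.84, against 1.04 in the authors' DESeq2 table and 1.08 in their Cuffdiff table. For Rps27, with a mean count of 11.5, the narrow interval says little. In islets the intervals reached from −0.71 to 0.78, with 47 of 72 within 0.5 and all 72 within 1. On simulated data with the mean and spread of each gene, differences of 0.5 were called for 6% of the changed genes in the islet comparison and 79.5% in the spleen comparison, and differences of 1 for 97% and 100%. The simulated noise was independent between genes, whereas the members shift together from library to library. More changed genes were planted, all of 1 size, than the 30 and 39 called in the data, which makes the threshold easier to pass. These shares may therefore be too high for the members. A p that misses the threshold does not show that the members were equal.

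The difference between the TCRs in islets was not the same along the size of the proteins. Across the 72 members, which share the same 6 libraries and are not independent replicates, the islet difference rose with the length of the coding sequence (Pearson's r = 0.609, Spearman's rho = 0.595), so that the members at or below the median coding length of 468 bases had a median difference of −0.13 and the others one of 0.00. Library 4-8 replicate 1 carried much of it: in this library longer members lay 0.13 above shorter ones relative to the mean of each gene, and in the other 5 between −0.08 and −0.01, and without it r was 0.355. In spleen the correlation with coding length had no stable direction: r was −0.269 over 73 members, 0.165 without 4-8 replicate 1, −0.0618 without 12-4.4m1 replicate 2 and −0.420 at its lowest, without 4-8 replicate 2. Between the organs r with coding length was 0.30 in 4-8 and −0.10 in 12-4.4m1. GC content, the share of stretches in other genes and the mean count were examined too, with r of 0.05, 0.04 and 0.06 in islets. Coding length in islets gave the largest r of any feature in any comparison. The correlation over all genes was not computed, so it cannot be called particular to the members.

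Between islets and spleen a few members rose and none fell, in each TCR. Differences are now islets minus spleen. For 4-8, 3 of 73 members were higher in islets and 0 lower (4.11%), where 5.14% of all genes were higher and 2.84% lower, 7.98% together. For 12-4.4m1, 5 of 72 were higher and 0 lower (6.94%), where 4.63% of all genes were higher and 2.18% lower, 6.81% together. The shares of members called were thus near those of all genes. They included Rps25 and Rps2 for 4-8, and Rpl37a, Rps25, Rpl8 and Rps15a for 12-4.4m1, and Rps25 passed in both. In bulk libraries a higher level per cell and a larger share of cells with a high level cannot be told apart.

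Rps25 (chr9:44407139-44410427, plus strand, GRCm38 in GENCODE vM21) encodes a small subunit protein with a known part in initiation at internal ribosome entry sites. It stood at 11.37, 10.97 and 11.74 in 4-8 islets and at 10.71, 10.65 and 10.84 in 4-8 spleen, a difference of 0.63 ± 0.16 (adjusted p = 0.0237, limma). In 12-4.4m1 it stood at 10.65, 11.03 and 11.20 in islets and at 10.15, 10.21 and 10.56 in spleen, a difference of 0.65 ± 0.15 (adjusted p = 0.0069, limma). The groups did not overlap in either TCR, although the nearest libraries were about 0.1 apart. In the authors' FPKM its level in islets was 5850 against 3039 for 4-8 and 5794 against 3144 for 12-4.4m1. The 4-8 call held in 1 of 6 fits that each left out a library (adjusted p up to 0.116) and the 12-4.4m1 call in 5 of 6, failing without spleen replicate 1 (adjusted p = 0.0649, limma).

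Rpl37a (chr1:72711290-72713813, plus strand), a zinc-binding protein of the large subunit, showed the largest difference of all members in 12-4.4m1. Its values were 10.82, 11.37 and 11.27 in islets and 10.31, 10.18 and 10.45 in spleen, a difference of 0.84 ± 0.14 (adjusted p = 0.000334, limma), and the call held in 6 of 6 fits that each left out a library. In 4-8 it measured 11.03, 11.33 and 11.69 in islets and 10.95, 10.81 and 10.77 in spleen, and with 0.51 ± 0.15 it missed the threshold (adjusted p = 0.0519, limma) although the groups did not overlap. The authors' FPKM was 14489 in islets and 6841 in spleen for 12-4.4m1, and 12448 and 7379 for 4-8. Whether its tissue difference differed between the TCRs was not tested, because the tables were normalized separately.

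Rpl8 (chr15:76904078-76906314, plus strand), which lies by the peptidyl transferase centre, and Rps15a (chr7:118104372-118116188, minus strand) passed in 12-4.4m1 only narrowly. Rpl8 measured 10.91, 11.13 and 11.34 in islets and 10.71, 10.56 and 10.60 in spleen, a difference of 0.50 ± 0.13 (adjusted p = 0.0199, limma). Rps15a measured 11.54, 12.05 and 11.99 in islets and 11.39, 11.33 and 11.52 in spleen, a difference of 0.45 ± 0.13 (adjusted p = 0.0442, limma). Each call held in 1 of 6 fits that left out a library. In 4-8 the differences were 0.43 ± 0.15 for Rpl8 (adjusted p = 0.0796, limma) and 0.32 ± 0.12 for Rps15a (adjusted p = 0.133, limma), with groups that did not overlap. The deposited measures place the level of Rps15a differently. In the 12-4.4m1 comparison its mean normalized count was 3271, against a median of 1323 over the members. Its FPKM there was low, at 808 in islets and 526 in spleen. Why these measures differ was not tested.

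Rps2 (chr17:24718116-24721929, plus strand) passed in 4-8 but rested on a part of its libraries. It measured 10.87, 10.13 and 11.02 in islets and 9.93, 10.15 and 10.05 in spleen, so that islet replicate 2 lay within the spleen range, and the difference was 0.63 ± 0.18 (adjusted p = 0.0444, limma). The call held in 1 of 6 fits that left out a library. In 12-4.4m1 it measured 9.45, 9.78 and 10.36 in islets and 9.54, 9.46 and 9.64 in spleen, a difference of 0.31 ± 0.17 (adjusted p = 0.306, limma). Of its stretches of 50 bases 76.8% occur in other GENCODE genes, which numbered 71.

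**Figure D2:**
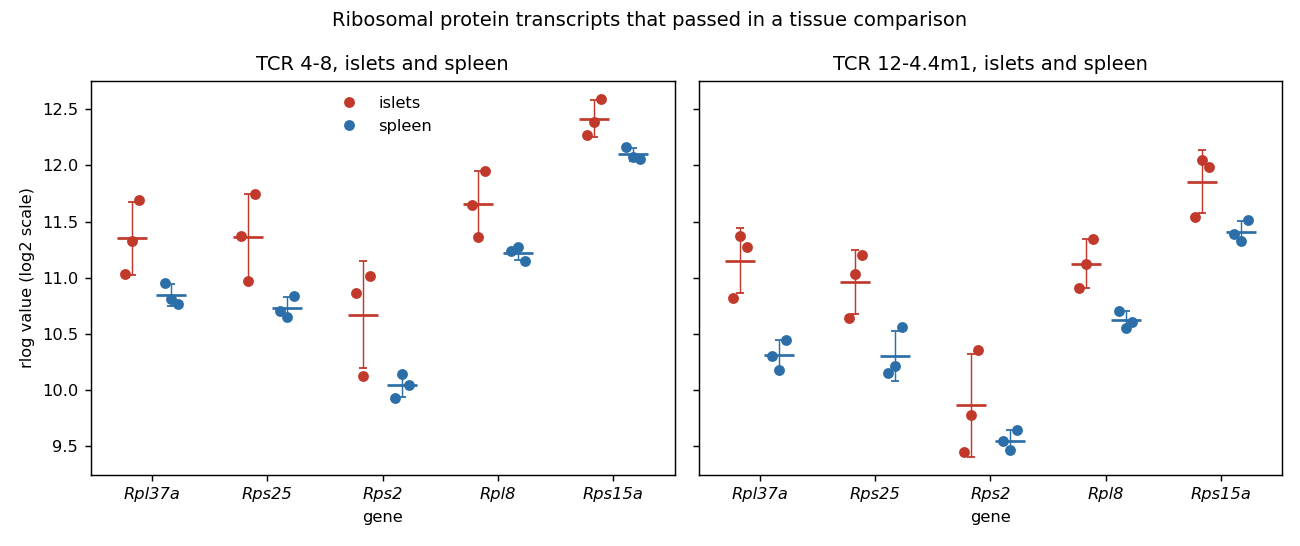
rlog values (y axis, log2 scale) of 5 genes that passed in a tissue comparison, in islets (red) and spleen (blue), for 4-8 (left) and 12-4.4m1 (right), with each library as a point, the mean as a line and the SD of 3 libraries as a bar. Islet and spleen libraries of Rps25 are separated in both panels, and for Rps2 islet and spleen libraries overlap in both.

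No member was lower in islets by the test, and those with the lowest differences were few. In 4-8 the most negative was Rpl17, a protein at the mouth of the exit tunnel, with 10.50, 10.38 and 10.66 in islets and 10.87, 10.86 and 10.84 in spleen, a difference of −0.34 ± 0.13 (adjusted p = 0.117, limma). Rps10, a small subunit protein at the mRNA entry side, followed with 10.50, 10.29 and 10.62 against 10.86, 10.81 and 10.70, a difference of −0.32 ± 0.13 (adjusted p = 0.163, limma). In these genes, and in Rpl23a and Rps14, all islet libraries of 4-8 lay below all spleen libraries. In 12-4.4m1 Rpl17 differed by −0.04 ± 0.14, Rps10 by −0.08 ± 0.13 and Rps3 by −0.05 ± 0.13, and the groups overlapped.

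The stalk genes and the others named for their roles did not pass between the organs. Rplp0 measured 11.82, 11.45 and 11.90 in 4-8 islets and 11.11, 11.44 and 11.32 in 4-8 spleen, a difference of 0.43 ± 0.14 that missed the threshold (adjusted p = 0.0754, limma), and 0.29 ± 0.14 in 12-4.4m1 (adjusted p = 0.237, limma). Its partners Rplp1 and Rplp2 differed by −0.08 ± 0.13 and −0.14 ± 0.14 in 4-8 and by 0.05 ± 0.13 and 0.16 ± 0.13 in 12-4.4m1. Rps6 measured 9.28, 8.75 and 9.33 against 8.97, 9.21 and 9.09 in 4-8, a difference of 0.03 ± 0.16, and −0.05 ± 0.15 in 12-4.4m1. Rpl22 differed by −0.05 ± 0.14 and 0.12 ± 0.13 in 4-8 and 12-4.4m1, Rps27l by 0.04 ± 0.18 and 0.05 ± 0.17, and Rpl3 by 0.26 ± 0.15 and 0.24 ± 0.14. Rps4x differed by 0.17 ± 0.12 and 0.07 ± 0.12, Rpl10 by 0.08 ± 0.16 and 0.03 ± 0.14, and Rpl39 by 0.15 ± 0.13 and 0.26 ± 0.14.

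As a group, the members lay around 0 in 4-8 and above 0 in 12-4.4m1. In 4-8, 43 of 73 differences were above 0 and 30 below (48.3% of all genes were above 0), with a median of 0.04 against −0.01 over all genes, and leaving out each library in turn moved the median between −0.08 and 0.12. In 12-4.4m1, 63 of 72 were above 0 and 9 below (49.7% of all genes were above 0), with a median of 0.15 against 0.00 over all genes, and between 0.10 and 0.26 without each library. Under other filters, scalings and models the median fell as low as 0.06, and the members above 0 to as few as 48 of 72. Genes at or above the upper quartile by level also deviated, in both TCRs. In 12-4.4m1 their medians were 0.01, 0.04 and 0.07 in the islet libraries and −0.02, −0.05 and −0.03 in the spleen libraries. In 4-8 they were 0.02, 0.03 and 0.05 in the islet libraries and −0.02, −0.02 and −0.03 in the spleen libraries. By subunit the medians in 12-4.4m1 were 0.15 for the 29 small and 0.16 for the 40 large subunit genes, and in 4-8 they were 0.02 and 0.05. Groups that did not overlap were found for 11 members higher and 5 lower in 4-8, 21.9% of the members, against 27.4% of all genes (14.3% higher, 13.1% lower). In 12-4.4m1 they were found for 12 higher and 0 lower, 16.7%, against 24.1% of all genes (13.2% higher, 10.9% lower). An unadjusted p under 0.05 was reached by 9 members higher and 3 lower in 4-8 (22.2% of all genes) and by 13 higher and 0 lower in 12-4.4m1 (20.3% of all genes). Members of 1 table share its 6 libraries, so these counts describe the libraries and are not independent observations.

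The tissue comparisons of the TCRs share no library, and the members' differences were about as alike between them as those of all genes. Over the 72 members measured in both, Pearson's r was 0.781 and Spearman's rho 0.714, against 0.707 and 0.568 over all 8298 genes tested in both, as a description across genes that share the library preparation and the gene models. Of the 72 members, 41 (56.9%) were higher and 8 (11.1%) lower in islets in both TCRs, where 33.3% and 35.8% of all genes were, and 23 (31.9%) had opposite signs, where 30.9% of all genes did. The groups did not overlap in both TCRs for 7 members (9.72%), all higher in islets, with Rpl28, Rpl37a, Rpl8, Rps15a, Rps20 and Rps25 among them. Of all genes 6.51% did so with islets higher and 3.74% with islets lower. The islet and the spleen comparison of the TCRs share no library either, and there r was −0.140 and rho −0.0906, with the same sign in 26 of 72 members (36.1%), against an r of 0.216, a rho of 0.123 and the same sign in 52.9% over all 8049 genes tested in both.

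**Figure D3:**
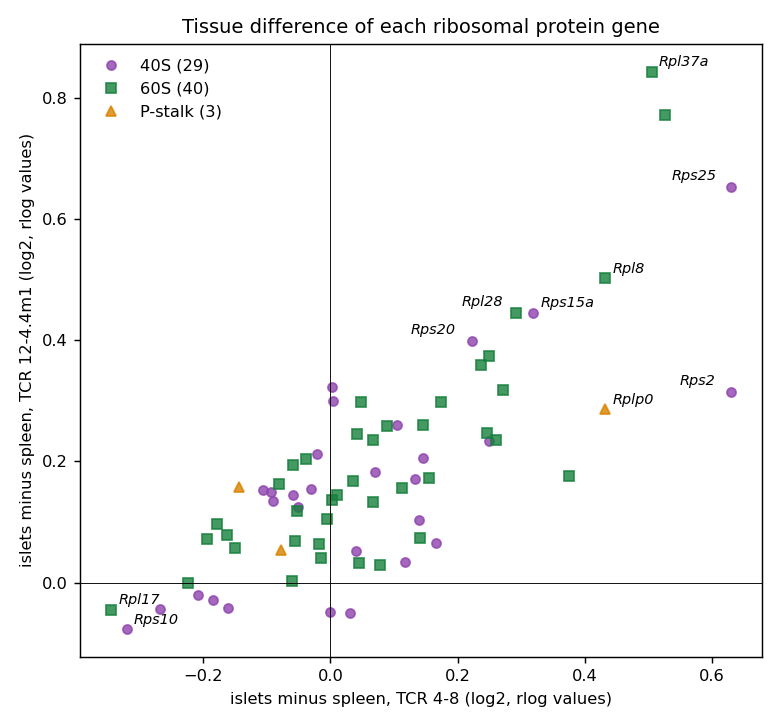
Islets minus spleen for each of 72 ribosomal protein genes (log2 of rlog values), in 4-8 (x axis) and 12-4.4m1 (y axis), with small subunit, large subunit and stalk genes as separate symbols. Most points lie above 0 on the y axis, and Rpl37a, Rps25 and Rpl8 lie to the upper right in both.

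Members shifted together from library to library within a group. In the islet TCR table their median deviation from each gene's mean was −0.21 in 4-8 replicate 2, −0.19 in 12-4.4m1 replicate 1 and 0.18 in 4-8 replicate 3, while the median over all genes stayed within 0.01 of 0 in each library. In the tissue comparisons islet replicate 3 of 4-8 was the highest library for 47 of 73 members, with a median deviation of 0.22, and spleen replicate 2 of 12-4.4m1 was the lowest for 43 of 72, with −0.18. The same library, 12-4.4m1 spleen replicate 2, was also the lowest for 45 of 73 members in the spleen TCR table. The median SD over 3 libraries was 0.22 in each islet group of the islet table, and in spleen 0.09 for 4-8 and 0.10 for 12-4.4m1. Genes at or above the upper quartile by level had 0.21 and 0.19 in islets and 0.13 and 0.13 in spleen.

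**Figure D4:**
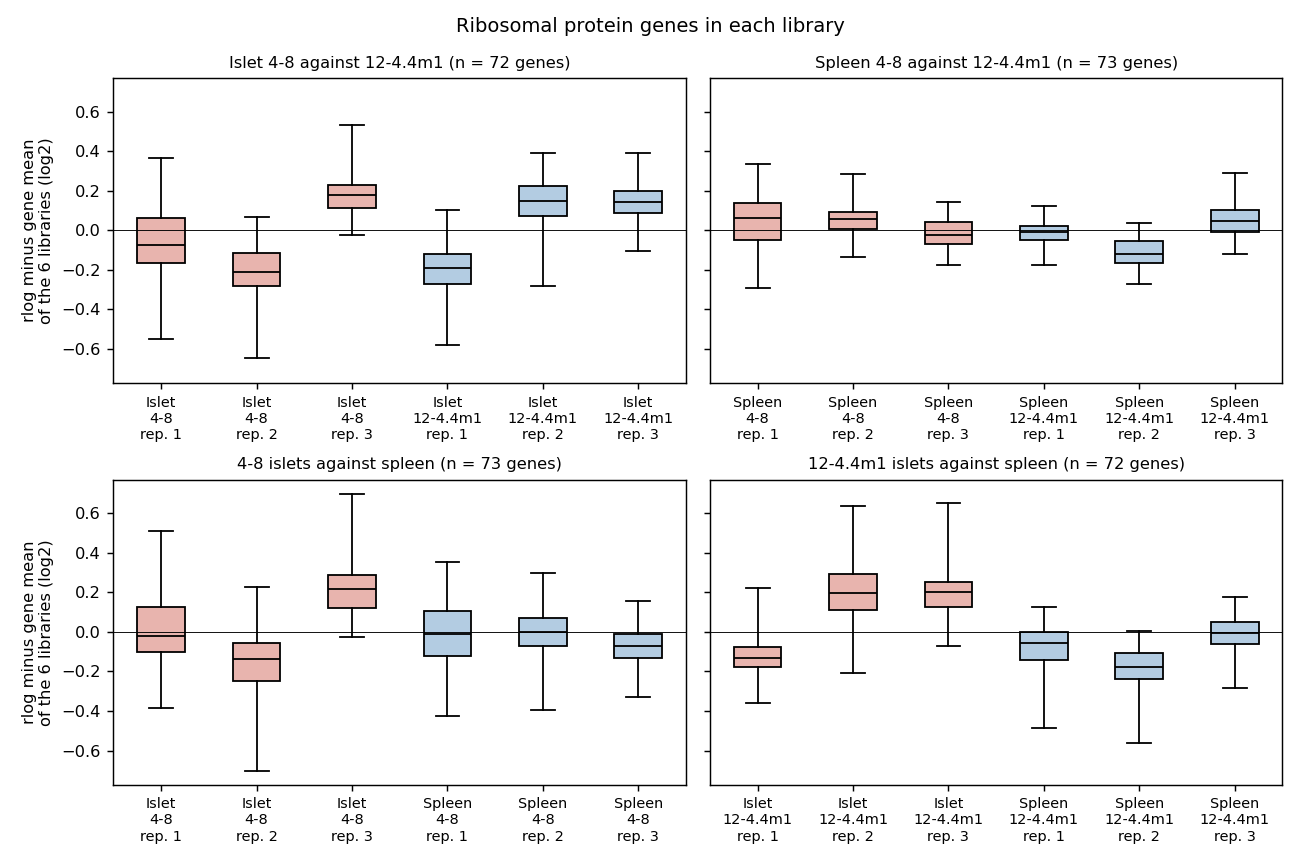
Deviation of each ribosomal protein gene from its mean over the 6 libraries of a table (y axis, log2), as 1 box per library in each table, with the box at the quartiles, the line at the median and the whiskers at the lowest and highest gene. Whole boxes are shifted, with medians down to −0.21 in islet replicate 2 of 4-8 and up to 0.22 in islet replicate 3 of 4-8.

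Other genes of the translation machinery were compared through lists. Of 9 tested ribosomal proteins whose symbols fall outside the naming rule, such as Rpsa and Fau, 0 passed between the TCRs in islets or spleen, 0 for 4-8 tissue and 1 for 12-4.4m1 tissue, which was Rpl22l1, the paralogue of Rpl22, with 8.52, 8.99 and 8.76 in islets against 8.13, 8.14 and 8.40 in spleen (0.53 ± 0.15, adjusted p = 0.0343, limma). Of 20 other mRNAs known for a TOP start, 0 passed between the TCRs in either organ and 2 rose in islets in both TCRs, the elongation factor genes Eef1d and Eef2. Eef2, the translocase, measured 11.97, 11.66 and 11.96 in 4-8 islets against 11.33, 11.55 and 11.36 in spleen (0.45 ± 0.13, adjusted p = 0.0454, limma). In 12-4.4m1 it measured 11.18, 11.38 and 11.38 against 10.76, 10.97 and 10.75 (0.49 ± 0.13, adjusted p = 0.0177, limma). Eef1d, part of the exchange factor for the elongation factor that brings in aminoacyl-tRNA, differed by 0.57 ± 0.15 (adjusted p = 0.0235, limma) and 0.54 ± 0.14 (adjusted p = 0.0213, limma). The medians of this list were 0.12 for 4-8 and 0.09 for 12-4.4m1.

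Of the genes that make or control ribosomes 0 passed between the TCRs in either organ. Of 33 ribosome biogenesis genes 1 rose in islets in each TCR and 0 fell. It was Nop56, a core protein of the small nucleolar particles that guide methylation of ribosomal RNA, with 7.59, 7.47 and 7.94 in 4-8 islets against 6.84, 7.00 and 6.92 in spleen (0.75 ± 0.16, adjusted p = 0.0089, limma) and a difference of 0.68 ± 0.18 in 12-4.4m1 (adjusted p = 0.0245, limma). Of 27 genes of mTOR signalling and translation control, 3 rose and 0 fell in 4-8 islets, and 1 rose and 1 fell in 12-4.4m1. Ppp1r15a, which directs the phosphatase that reverses the stress block on initiation, rose by 2.17 ± 0.18 in 4-8 and 2.09 ± 0.18 in 12-4.4m1. The mTOR inhibitor Ddit4 (1.11 ± 0.22) and the initiation helicase Eif4a1 (0.75 ± 0.16) rose in 4-8, and the kinase Eif2ak2 fell by 0.73 ± 0.19 in 12-4.4m1. The members of these lists that rose have opposite roles, since Ddit4 restrains mTOR and Nop56 takes part in building ribosomes.

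Some markers of other cells and of stress moved with the tissue comparison, and their part in the ribosomal protein result was not tested. Of the heat shock and early response genes 13 of 15 tested rose in 4-8 islets and 15 of 16 in 12-4.4m1 islets, with medians of 1.17 and 1.28, and Fos rose by 4.24 ± 0.18 and 4.46 ± 0.19. Between the TCRs in islets 0 of these 16 genes passed, but all 16 were lower in 4-8, with a median of −0.39 and −0.09 at the highest. The list's median per library was 7.95 to 8.33 in 4-8 against 8.52 to 8.72 in 12-4.4m1. In spleen 0 of 11 passed between the TCRs, with a median of −0.17. Of 27 listed genes of pancreatic acinar cells, 11 reached the minimum count in the 4-8 comparison and 9 in the 12-4.4m1 comparison. In the spleen comparison of the TCRs 0 of the 27 reached it. The tested genes thus got past the minimum through their islet libraries, so a rise among them was favoured in advance. Of those tested 9 of 11 rose in 4-8 islets and 8 of 9 in 12-4.4m1 islets. The log2 of the summed levels of all 27 was 7.31 to 8.07 in islets against 6.83 to 6.94 in spleen for 4-8. For 12-4.4m1 it was 7.99 to 8.33 against 7.08 to 7.22. Between the TCRs in islets 0 of 14 tested acinar genes passed, with a median of −0.19. Prss1, Try10 and Amy2a5 were listed at 0 in both tissue tables. Of 12 islet endocrine markers 0 were tested in 4-8 and 1 in 12-4.4m1, and the insulin genes Ins1 and Ins2 had mean normalized counts of 0.77 and 0.71 in the 4-8 table and 2.54 and 3.30 in the 12-4.4m1 table. Of the CD8 T and NK cell markers 1 of 3 tested rose in 4-8 islets and 0 of 1 passed in 12-4.4m1. Of the myeloid markers 0 of 3 and 0 of 1 passed, and 0 B cell markers were tested. Foxp3, the defining factor of Tregs, was present in every library, between 9.61 and 9.93 in the 4-8 tissue table and between 8.95 and 9.36 in the 12-4.4m1 table, and differed by −0.06 and 0.08 between the organs. Of the 11 Treg and T cell genes tested, which include Foxp3, 3 rose in 4-8 islets, 2 rose in 12-4.4m1 islets and 0 fell.

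The rule for what is called mattered for the size of the tissue result and not for the TCR result. Between the TCRs the count of members called was 0 under every alternative run, from the filter and scaling to each library left out. In 4-8 tissue it was 3 by limma, 6 in the authors' DESeq2 table, 8 in their Cuffdiff table (6.76% and 15.7% of all genes) and 0 without the mean-variance trend, and it was 0 when any of the 3 spleen libraries was left out and 10 when islet replicate 2 was. In 12-4.4m1 it was 5 by limma, 8 and 10 in the authors' deposited tables (4.72% and 14.4% of all genes) and 3 without the trend, with 2 without spleen replicate 1 and 12 without islet replicate 1.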

How the data were processed

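RNA was measured by RNA-seq in 12 libraries of sorted Tregs, made per the labels' protocols by cell lysis in Triton X-100, reverse transcription, cDNA amplification and Nextera XT. Per the submitters' processing notes, the authors used STAR 1.1.0, TopHat 1.0.0, DESeq2 1.1.0, DESeq and Cufflinks with build mm10 (GRCm38), versions as written there. The role of each tool is not given. For each of 4 comparisons the authors deposited regularized log2 values (rlog) of each library, per the file headers. The authors' deposited DESeq2 table gives the mean normalized count, a signal made by their normalization, with a log2 fold change, a Wald statistic (a score) and a p-value. The authors' Cuffdiff table gives 1 FPKM per group and a p-value and q-value. Raw counts and the depth of each library were not used here, and the mean normalized counts of all genes summed to 898995, 1316454, 1284347 and 918913 in the islet TCR, spleen TCR, 4-8 tissue and 12-4.4m1 tissue tables. The arrangement of reads with several matches is not given in the sources used here, and the library kit does not mark the strand.

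Each table was fitted on its own, 3 libraries against 3, since each was normalized separately. The fit was limma 3.58.1 (lmFit, eBayes with a mean-variance trend) in R 4.3.3 over all genes with a mean normalized count of at least 10, 2-sided, with Benjamini-Hochberg adjustment over all of them and a threshold of 0.05. It was tested on simulated data first. The members and gene lists were chosen with earlier results of these data known. Genes were named by a rule: members past the threshold, filled to 3 in each direction by the smallest unadjusted p, 10 members chosen for their roles, the 3 highest and 3 lowest in FPKM, and up to 3 of each list. Values of some of these genes are not reported here, although counts and medians over the members include them. Shared stretches of 50 bases, positions and coding lengths came from GENCODE vM21. Columns were matched to samples by title. No title matches 1 of the islet 4-8 columns where the TCRs are compared, and it is called replicate 3 by elimination. For replicate 2 of each spleen group the description names the other TCR's tissue table, and the titles were followed. Rows of 2 repeated symbols, 4 in all, were left out. The alternatives changed the filter, scaling, variance model and authors' test, added a replicate block or the style of the titles, and left out each library. Titles that contain Treg occur for islet 4-8 replicate 2 and islet 12-4.4m1 replicates 1 and 2, and for no spleen library. The style of the titles is therefore partly confounded with the organ.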

Additional observations from a re-analysis of the deposited data

How the results depend on the processing

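Between the TCRs 0 members were called under all alternatives run, in islets and in spleen. For 4-8 tissue the count of 3 became 0 without the mean-variance trend, 6 in the authors' DESeq2 table, 8 in their Cuffdiff table and 10 with the style of the titles in the fit. It ranged from 0 to 10 when each library was left out. In 4-8 tissue only islet replicate 2 has the other title style, so the fit with style repeats the fit without that library and is no separate alternative. For 12-4.4m1 tissue the count of 5 became 3 without the trend, 8 in the DESeq2 table and 10 in the Cuffdiff table, and it ranged from 2 to 12 when each library was left out. The cause of these changes was not tested, other than that fits with a library left out use fewer samples. Scaling by the upper quartile moved the median of all genes by −0.11 in 4-8 tissue and −0.10 in 12-4.4m1 tissue. It gave 2 higher and 1 lower in 4-8, where Rpl17 passed at −0.44 (adjusted p = 0.0384, limma), and the median of the members there became −0.05 with 28 of 73 above 0. The median in 12-4.4m1 kept its sign in every alternative, between 0.06 and 0.27. None of the named genes that passed changed sign. The labels do not say that a replicate number marks 1 mouse. The deviations of libraries numbered 1, 2 and 3 in both groups correlated across genes at −0.04, 0.13 and 0.21 in the islet TCR table, 0.12, 0.09 and 0.07 in the spleen TCR table, −0.06, −0.12 and −0.05 in 4-8 tissue and 0.04, −0.03 and −0.01 in 12-4.4m1 tissue, so in no table did every pair exceed 0.1. In spleen each 4-8 library correlated best with the 12-4.4m1 library of its own number, a hint of pairing from the data and not from the design. With a replicate block 0 members were called between the TCRs in either organ, 3 in 4-8 tissue and 6 in 12-4.4m1 tissue. The correlation with coding length, whose alternatives were chosen after seeing the data, ran from 0.355 to 0.660 in islets when each library was left out, and from −0.420 to 0.165 in spleen, where it changed sign without 4-8 replicate 1. Depth per library is not known, so it sets no interval here, and genes with a mean count near 10 are the least certain.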

Other observations

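Few genes of mitochondrial ribosomal proteins, which form the separate ribosome of the mitochondrion, passed. Of 74 tested in islets and 77 in spleen 0 differed between the TCRs, and between the organs 1 of 76 rose in 4-8 and 0 of 74 in 12-4.4m1. The gene was Mrps6, with 7.73, 7.03 and 7.59 in islets against 6.39, 6.77 and 6.88 in spleen (0.77 ± 0.20, adjusted p = 0.0215, limma), and its groups did not overlap. The medians of this list between the organs were 0.01 for 4-8 and 0.02 for 12-4.4m1.

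Some genes of resting T cells changed between the organs. Of 13 tested, 5 fell and 1 rose in 4-8 islets, and 2 fell and 2 rose in 12-4.4m1 islets. Of all genes 2.84% fell and 5.14% rose in 4-8, and 2.18% fell and 4.63% rose in 12-4.4m1. The list's medians were −0.32 for 4-8 and 0.09 for 12-4.4m1. Il7r, the interleukin 7 receptor chain, measured 8.14, 7.82 and 8.32 in 4-8 islets against 9.99, 9.26 and 9.47 in spleen, and fell by 1.48 ± 0.18. In 12-4.4m1 it fell by 1.87 ± 0.21. The transcription factor Klf3 fell by 2.09 ± 0.19 and 1.09 ± 0.18. The lymph node homing receptor Ccr7 went the other way, with a rise of 1.23 ± 0.26 in 4-8 and 1.21 ± 0.23 in 12-4.4m1.

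The p53 targets tested, some of which respond when ribosome assembly fails, gave 1 rise among 13 in 4-8 islets, and 1 rise and 1 fall among 12 in 12-4.4m1 islets. The cell cycle inhibitor Cdkn1a rose by 1.33 ± 0.21 in 4-8 and 0.74 ± 0.22 in 12-4.4m1. Ccng1 fell by 0.65 ± 0.16 in 12-4.4m1. Between the TCRs 0 of 12 passed in islets and 0 of 11 in spleen.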
